A study of Homo sapiens with 2 samples.

Results

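The replication-dependent histone genes were taken as every gene of the deposited table whose symbol starts with HIST1H, HIST2H, HIST3H or HIST4H, without symbols that end in PS and a digit or in P. This gave 76 of 58698 genes: 6 for the linker histone H1, 17 for H2A, 23 for H2B, 15 for H3 and 15 for H4. Of the 76, 70 are annotated as protein-coding in GENCODE release 29 and 6 as pseudogenes. The values come from 2 cultures of MIA PaCa-2, an established line of human pancreatic cancer cells. One culture, sgTPST2, carried a guide against TPST2, which encodes a Golgi enzyme that sulfates tyrosines of secreted and membrane proteins, and its genotype is given as TPST2 KD. The other, sgGFP, carried a guide against GFP, a gene that human cells lack, and its genotype is given as WT. The sources used here do not say whether a culture was a clone or a pool, or how the guide acted.

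Each condition was 1 library of total RNA, so the spread between cultures is unknown and no test was made. Levels are in FPKM, a fragment count divided by library size and by an effective transcript length, shorter than the annotated one. Differences are log2((sgTPST2 + 1)/(sgGFP + 1)), so a positive value means higher in sgTPST2. From the steps between low values, 1 FPKM stood for about 47.8 fragments per kb in sgTPST2 and 42.0 in sgGFP. That fit took 176 bases off each annotated length in sgTPST2 and 175 in sgGFP. TPST2 itself (chromosome 22, 26521983 to 26596717, GRCh38) was at 1.92 FPKM in sgTPST2 and at 8.46 FPKM in sgGFP. The epithelial keratin KRT8 was at 41.6 FPKM in sgTPST2 and 510 FPKM in sgGFP, the epithelial adhesion gene EPCAM was listed at 0 in both libraries, and the fibroblast markers DCN and LUM and the endothelial marker PECAM1 were listed at 0 in both.

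Histones package DNA. An octamer of H2A, H2B, H3 and H4 forms the nucleosome core, and H1 binds the linker DNA between cores. Replication-dependent genes supply histones while DNA is copied, and lie in clusters. Their transcripts mostly have no introns and end not in a poly(A) tail but in a short stem-loop, which is bound by the stem-loop binding protein SLBP and cut with the help of the U7 small nuclear RNA. Because most of these mRNAs lack a tail, a total RNA library captures them where poly(A) selection would lose most of them.

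The stem-loop is the feature that sets this family apart, so its sequence is shown for members that the results turn on. It was searched in the annotated transcripts, on the transcript strand, as GG, 2 bases of any kind, CTTTT, any base, AG, 2 bases of any kind and CC, within 100 bases after the stop codon. Capitals mark the 16 bases of the match, written as DNA, with the neighbouring bases in lower case.
HIST4H4: caaaaGGCCCTTTTCAGGGCCcccaa
HIST1H4H: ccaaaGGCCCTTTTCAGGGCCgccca
HIST1H4I: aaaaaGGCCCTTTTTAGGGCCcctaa
HIST1H2BD: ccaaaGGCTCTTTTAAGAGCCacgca
HIST2H2BE: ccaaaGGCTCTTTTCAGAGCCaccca
HIST1H2BH: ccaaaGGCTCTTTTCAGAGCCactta
HIST1H3H: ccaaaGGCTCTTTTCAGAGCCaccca
HIST1H2AG: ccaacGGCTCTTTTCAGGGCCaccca
The annotation of 34 of the 70 coding members stops at the stop codon, so the site cannot be seen there. Of the 32 coding members annotated for at least 60 bases after it, 30 hold the motif. The exceptions are HIST1H2BJ and HIST1H3E, where these letters are not in the window. HIST1H4J, annotated for 44 bases, holds it too. In HIST1H4C and HIST1H1T (51 bases each) and HIST1H1E (57 bases) it was not found, though the annotation may end before the site. Of 19076 other coding genes annotated that far, 1 holds it, H2AFX, a replacement H2A gene known to make both a stem-loop and a polyadenylated mRNA.

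The letters of the stem differ by class among H2A, H2B, H3 and H4. No match was found in H1, where no member is annotated for 60 bases after the stop codon. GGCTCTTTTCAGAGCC is present in 17 members (6 of H2A, 8 of H2B and 3 of H3) and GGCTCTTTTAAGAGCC in 5 members of H2B and H3. All 8 H4 members with the motif have a stem of GGCCC, with 5 of them reading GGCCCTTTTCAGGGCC and 3 reading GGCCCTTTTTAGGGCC. HIST4H4 and HIST1H4H share the same 16 bases. Their levels differed in opposite directions: HIST4H4 was at 135 FPKM in sgTPST2 and 245 FPKM in sgGFP, and HIST1H4H at 930 FPKM in sgTPST2 and 818 FPKM in sgGFP.

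Histone mRNAs were abundant in both cultures and, on the authors' scaling, slightly higher in sgTPST2. The members summed to 30020 FPKM in sgTPST2 and 27460 FPKM in sgGFP, a log2 ratio of 0.13. This ratio depends on the scaling chosen. It was 0.13 with equal upper quartiles of genes past 1 FPKM and 0.14 with equal sums over all genes, but lower on another scaling. The locus of the abundant RN7SL1, at 84410 FPKM in sgGFP, could not be estimated in sgTPST2 and is listed there at 0. With the libraries scaled to equal sums over the genes that were estimated, called the equal-sum scaling here and chosen after seeing the data, all sgTPST2 levels are lower by 0.12 on the log2 scale and the ratio of the histone sums is 0.01. Of the 76, 46 reached at least 100 FPKM in at least 1 library, 4 reached 5 to 100 FPKM, 8 reached 1 to 5 FPKM and 18 stayed under 1 FPKM. The H3 gene HIST1H3C was the highest in both libraries, at 1994 FPKM in sgTPST2 and 1826 FPKM in sgGFP. Next came HIST1H3B in sgTPST2, at 1701 FPKM there and 1352 FPKM in sgGFP, whereas in sgGFP the H4 gene HIST1H4D stood above it, at 1561 FPKM. 

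The difference was small and shared by most members. In 58 members the higher value reached 1 FPKM, the limit for giving a difference, and 49 of these had a difference above 0, where 50.0% of the 13411 genes past the same limit did. Their median difference was 0.17 (quartiles 0.07 and 0.27), against 0.00 over all genes past that limit. On the equal-sum scaling 37 of 58 members were above 0, where 33.4% of all genes were, and the medians were 0.05 for members and -0.11 for all genes. The members' median thus lay above that of all genes by 0.17 on the authors' scaling and by 0.16 on the equal-sum scaling. On the authors' scaling 33 members were at least 1.1-fold higher, with a background of 29.3%, and 2 were at least 1.1-fold lower, with a background of 28.8%. This uneven split depends on the scaling. The equal-sum scaling lowers every member, so that fewer pass the first limit and more pass the second. For example, HIST1H2AM went from 0.17 to 0.05 and HIST1H4D from -0.09 to -0.21. At least 1.5-fold higher was 1 member (background 4.41%), the pseudogene HIST2H2BD, and at least 1.5-fold lower were 2 members (background 6.90%), HIST1H1D and HIST4H4. Among members of at least 100 FPKM, 40 of 46 were above 0, where 54.7% of all genes of that level were, and 2 were at least 1.5-fold lower, where 6.64% were.

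**Figure D1:**
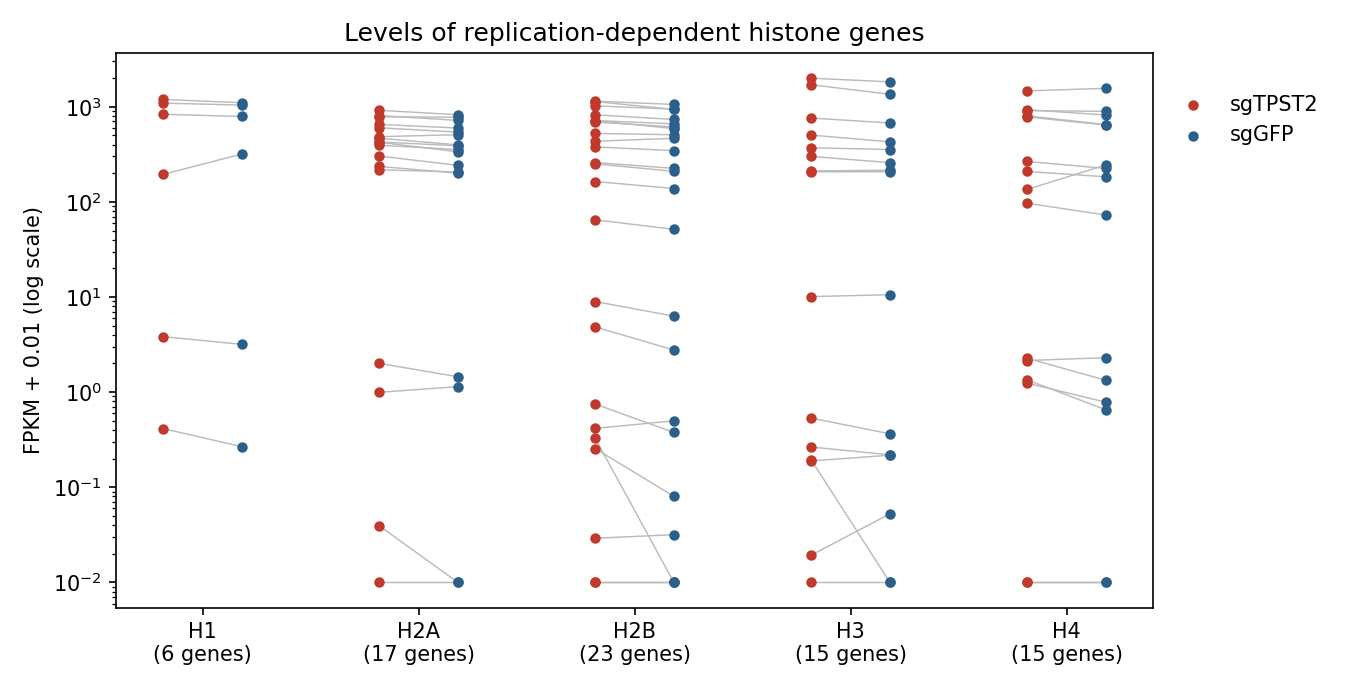
Level of each of the 76 members in sgTPST2 (left, red) and sgGFP (right, blue) by histone class, in FPKM + 0.01 on a log axis, with a line joining the 2 values of a gene. Of the 76 genes 46 reach 100 FPKM, the joining lines of HIST1H1D (H1) and HIST4H4 (H4) slope up towards sgGFP, and genes at the bottom edge are listed at 0.

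Other classes of RNA also differed between the libraries. RNAs listed as made without a poly(A) tail had a median difference of 0.29 over 7 genes past the limit, or 0.17 on the equal-sum scaling. On both scalings 6 of the 7 were above 0 and 1 was below. On the authors' scaling 1 was at least 1.5-fold higher and 0 were at least 1.5-fold lower. The RNase MRP component RMRP was at 72883 FPKM in sgTPST2 and 48069 FPKM in sgGFP, the RNase P component RPPH1 at 51919 FPKM in sgTPST2 and 39626 FPKM in sgGFP, and the signal recognition particle RNA RN7SL2 at 29377 FPKM in sgTPST2 and 24103 FPKM in sgGFP. The telomerase RNA TERC was at 86.4 FPKM in sgTPST2 and 66.9 FPKM in sgGFP. RN7SL1, of the same family as RN7SL2, is left out because of its missing estimate. Mitochondrially encoded mRNAs were lower in sgTPST2, with a median of -0.50 over 13 genes, 3 of them at least 1.5-fold lower and 0 higher. Here MT-CO1 was at 234 FPKM in sgTPST2 and 353 FPKM in sgGFP, MT-CO2 at 143 FPKM in sgTPST2 and 212 FPKM in sgGFP, MT-ND1 at 13.9 FPKM in sgTPST2 and 23.7 FPKM in sgGFP, and MT-ND2 at 9.25 FPKM in sgTPST2 and 14.7 FPKM in sgGFP. Their part in the histone difference was not tested, and in bulk RNA a change in the share of cells copying DNA and a change in mRNA per cell cannot be told apart.

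Linker histone genes were led by 3 members with nearly even levels. HIST1H1B was at 1192 FPKM in sgTPST2 and 1102 FPKM in sgGFP, HIST1H1C at 1091 FPKM in sgTPST2 and 1040 FPKM in sgGFP, and HIST1H1E at 833 FPKM in sgTPST2 and 790 FPKM in sgGFP. Each was slightly higher in sgTPST2 on the authors' scaling, with differences of 0.11, 0.07 and 0.08, but not on the equal-sum scaling, where they were 0.00, -0.05 and -0.04. HIST1H1T, the H1 of the testis, was at 3.82 FPKM in sgTPST2 and 3.17 FPKM in sgGFP, and HIST1H1A at 0.404 FPKM in sgTPST2 and 0.257 FPKM in sgGFP. The counting intervals (95%, exact Poisson) of both genes overlap between the libraries, at 3.10 to 4.65 FPKM in sgTPST2 and 2.47 to 3.98 FPKM in sgGFP for HIST1H1T and at 0.182 to 0.757 FPKM and 0.0818 to 0.588 FPKM for HIST1H1A. Intervals of this kind rest on the fragment numbers read from the steps and cover counting error only.

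HIST1H1D was the H1 gene that stood apart. It was at 195 FPKM in sgTPST2 and 318 FPKM in sgGFP, or 1.63-fold lower (difference -0.71). These values rest on about 4564 and 6562 fragments, with intervals of 189 to 200.5 FPKM in sgTPST2 and 311 to 326 FPKM in sgGFP. The gene (ENSG00000124575.6, chromosome 6, 26234268 to 26234933, minus strand, GRCh38) is annotated as 1 transcript, and 100% of its 51-base stretches occur in no other annotated gene. In the authors' deposited table its p is 0.0426 and its q is 0.99965. With it the summed H1 level had a log2 ratio of 0.03, at 3316 FPKM in sgTPST2 and 3255 FPKM in sgGFP, and without it 0.09. On the equal-sum scaling the summed H1 ratio was -0.09. HIST1H1D made up 5.87% of summed H1 FPKM in sgTPST2 and 9.78% in sgGFP.

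**Figure D2:**
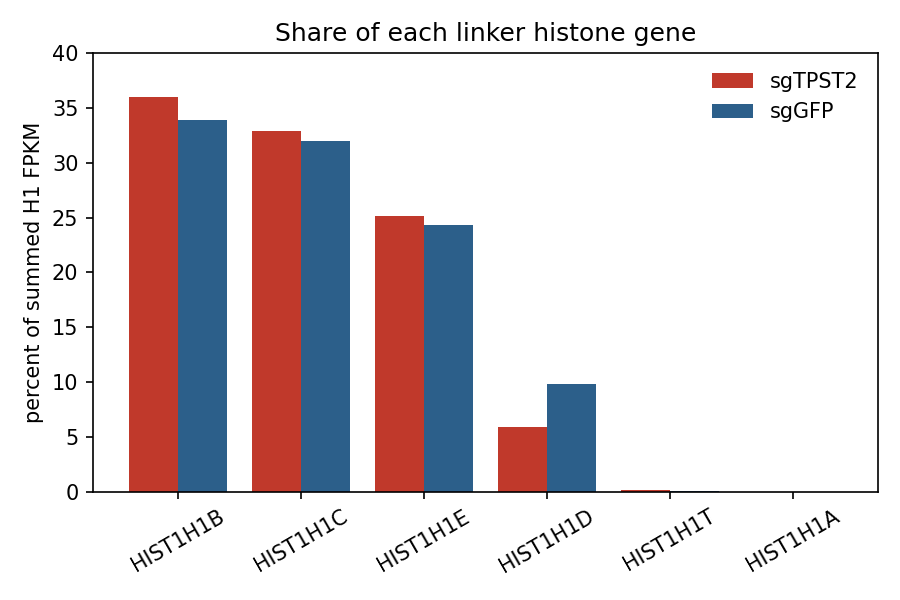
Share of each H1 gene in the summed H1 level, in percent of FPKM, with sgTPST2 in red on the left and sgGFP in blue on the right. HIST1H1D is the gene whose bar is shorter in sgTPST2, at 5.87% against 9.78% in sgGFP.

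Promoters of the 4 expressed H1 genes are shown because HIST1H1D differed from the other 3. Each is the 120 bases before the RefSeq start site (GRCh38.p14, chromosome 6), read in the direction of the gene, and capitals mark motifs found on either strand: the H1 box AAACACAA, CCAAT and TATAAA.
HIST1H1D (chr6:26234988-26235107, minus strand): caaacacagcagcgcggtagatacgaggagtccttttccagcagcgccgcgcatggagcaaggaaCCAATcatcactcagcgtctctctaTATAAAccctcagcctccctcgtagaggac
HIST1H1C (chr6:26056471-26056590, minus strand): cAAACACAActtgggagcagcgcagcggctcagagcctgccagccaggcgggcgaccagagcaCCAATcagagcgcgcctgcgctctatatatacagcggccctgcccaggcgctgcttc
HIST1H1B (chr6:27867589-27867708, minus strand): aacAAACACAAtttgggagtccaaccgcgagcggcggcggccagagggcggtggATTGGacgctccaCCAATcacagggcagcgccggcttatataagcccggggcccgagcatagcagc
HIST1H1E (chr6:26156209-26156328, plus strand): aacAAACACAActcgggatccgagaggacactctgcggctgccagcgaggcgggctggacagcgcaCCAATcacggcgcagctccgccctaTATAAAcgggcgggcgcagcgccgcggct
HIST1H1C, HIST1H1B and HIST1H1E hold the H1 box and CCAAT in this window. HIST1H1D holds CCAAT and, 119 bases before the start site, where HIST1H1C has its box, letters that differ from the H1 box by A8G, with positions counted from 1 at the 5′ end of the box and the letter of the box given first. The box with at most 1 difference is present in 24.3% of all promoters. Over the full promoters in RefSeq (300 bases, known for 64 coding members), the H1 box is present in 4 of 6 H1 promoters, HIST1H1T included, in 0 of the 58 promoters of core histone members, and in 1.61% of 27305 promoters in all. A match is a description of these letters and not of binding.

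H2A genes were higher in sgTPST2 as a class, by a small amount. Of 17 members 15 passed 1 FPKM, 13 of them above 0, or 11 on the equal-sum scaling (median 0.15 on the authors' scaling and 0.03 on the other, range -0.10 to 0.33), with 0 at least 1.5-fold apart, and the class summed to 6714 FPKM in sgTPST2 and 6092 FPKM in sgGFP. The highest was HIST1H2AI, at 918 FPKM in sgTPST2 and 823 FPKM in sgGFP, followed by HIST1H2AH at 783 FPKM in sgTPST2 and 776 FPKM in sgGFP and HIST1H2AM at 808 FPKM in sgTPST2 and 718 FPKM in sgGFP. HIST1H2AL was at 652 FPKM in sgTPST2 and 597 FPKM in sgGFP, and HIST2H2AC, from the chromosome 1 cluster, at 600.5 FPKM in sgTPST2 and 541 FPKM in sgGFP. HIST1H2AJ was lower in sgTPST2, at 484 FPKM in sgTPST2 and 508 FPKM in sgGFP. It shares most of its sequence with HIST1H2AI, so that only 16.3% of its 51-base stretches are its own, and reads may have been divided between them with error. The same limit holds for genes that were higher on the authors' scaling. The share was 37.7% for HIST1H2AI and 13.7% for HIST1H2AM, which overlaps HIST1H3J on the same strand. Among genes of other classes given below, it was 26.6% for HIST1H2BK and 19.9% for HIST2H3D.

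H2B genes had the most members above 0. Of 23 members 16 passed 1 FPKM and 15 of them were above 0 (median 0.19), or 11 on the equal-sum scaling (median 0.07), and the class summed to 8329 FPKM in sgTPST2 and 7489 FPKM in sgGFP. HIST1H2BD led with 1142 FPKM in sgTPST2 and 1057 FPKM in sgGFP, then HIST1H2BK with 1133 FPKM in sgTPST2 and 938 FPKM in sgGFP and HIST1H2BC with 1021 FPKM in sgTPST2 and 945 FPKM in sgGFP. HIST1H2BO was at 823 FPKM in sgTPST2 and 735 FPKM in sgGFP, HIST1H2BL at 716 FPKM in sgTPST2 and 660 FPKM in sgGFP, and HIST1H2BJ at 689.5 FPKM in sgTPST2 and 614 FPKM in sgGFP. The 1 member below 0 was HIST1H2BE, at 434 FPKM in sgTPST2 and 466 FPKM in sgGFP, which overlaps a gene on the opposite strand. HIST2H2BD, the 1 member at least 1.5-fold higher, stood at only 4.83 FPKM in sgTPST2 and 2.76 FPKM in sgGFP, and it overlaps HIST2H2BC, another annotated pseudogene, at 8.94 FPKM in sgTPST2 and 6.29 FPKM in sgGFP on the opposite strand.

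H2A and H2B genes often stand head to head. Over the RefSeq promoters, the octamer ATTTGCAT, the site of POU-domain factors known from H2B genes, was present on either strand in 13 of 17 H2B promoters, 11 of 16 H2A promoters, 1 of 12 H3 promoters (HIST1H3D, whose RefSeq window is the same as that of HIST1H2AD) and 0 of 19 H1 and H4 promoters, and in 1.80% of all promoters. Windows of head-to-head genes can share most of their bases, such as 27132746 to 27133045 for HIST1H2BJ and 27132793 to 27133092 for HIST1H2AG. The same octamer is then counted in both classes, so the H2A and H2B counts are not separate. The window of HIST1H2BJ is shown because it holds the octamer with CCAAT and TATAAA.
HIST1H2BJ (chr6:27132796-27132915, minus strand): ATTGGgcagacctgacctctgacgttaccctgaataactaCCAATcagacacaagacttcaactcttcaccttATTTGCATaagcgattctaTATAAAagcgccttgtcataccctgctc
There were 11 such pairs with less than 1000 bases between the annotated starts. In 9 of them both genes were expressed, and their differences lay 0.01 to 0.26 apart. HIST1H2AM and HIST1H2BO were closest in difference (0.17 and 0.16), and HIST1H2BK and HIST1H2AH farthest apart (0.27 and 0.01).

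H3 genes summed to 6059 FPKM in sgTPST2 and 5329 FPKM in sgGFP, a log2 ratio of 0.19, while their median difference was 0.13. Without HIST1H3B the ratio was 0.13, at 4357 FPKM in sgTPST2 and 3977 FPKM in sgGFP. HIST1H3C and HIST1H3B, given above, made up 32.9% and 28.1% of the H3 sum in sgTPST2 and 34.3% and 25.4% in sgGFP. HIST1H3B was the H3 gene with the largest difference (0.33), with counting intervals of 1677 to 1726 FPKM in sgTPST2 and 1329 to 1375 FPKM in sgGFP. HIST1H3J was at 760 FPKM in sgTPST2 and 676 FPKM in sgGFP, HIST1H3I at 503 FPKM in sgTPST2 and 427 FPKM in sgGFP, HIST2H3D at 370.3 FPKM in sgTPST2 and 355 FPKM in sgGFP, and HIST1H3H at 299.9 FPKM in sgTPST2 and 259 FPKM in sgGFP. All 4 were higher in sgTPST2, by 0.06 to 0.24, except that HIST2H3D was lower on the equal-sum scaling (-0.06). Of the 9 H3 members past 1 FPKM, 7 were above 0, or 5 on the equal-sum scaling, and 0 were at least 1.5-fold apart.

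H4 genes had the widest spread, which rests on HIST4H4. The 13 past 1 FPKM ran from -0.85 to 0.51 with a median of 0.24, and 10 were above 0, or 9 on the equal-sum scaling. Without HIST4H4 they ran from -0.09 to 0.51, against -0.71 to 0.21 in H1 and -0.10 to 0.63 in H2B. The upper end of H4 is the low HIST1H4I, at 1.33 FPKM in sgTPST2 and 0.642 FPKM in sgGFP. With a limit of 5 FPKM the H4 median was 0.19. HIST1H4D was the highest and was lower in sgTPST2, at 1467 FPKM, than in sgGFP, at 1561 FPKM. HIST1H4C was at 801 FPKM in sgTPST2 and 650.2 FPKM in sgGFP, HIST1H4B at 781 FPKM in sgTPST2 and 642 FPKM in sgGFP, HIST1H4L at 911 FPKM in sgTPST2 and 894 FPKM in sgGFP, and HIST1H4A at 266 FPKM in sgTPST2 and 224 FPKM in sgGFP. Differences of these 4 ran from 0.03 to 0.30, with HIST1H4L at -0.09 on the equal-sum scaling. The class summed to 5603 FPKM in sgTPST2 and 5295 FPKM in sgGFP, a log2 ratio of 0.08, or 0.11 without HIST4H4, and -0.04 on the equal-sum scaling with it.

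**Figure D3:**
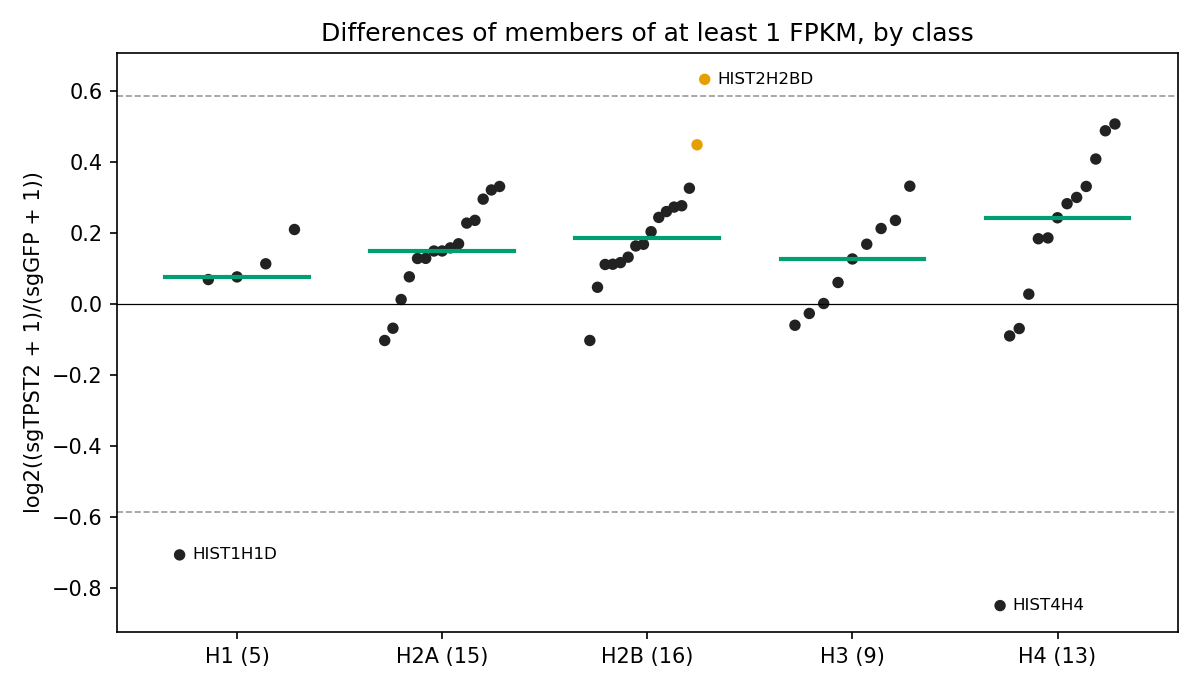
Difference of each member with a value of at least 1 FPKM, on the log2((sgTPST2 + 1)/(sgGFP + 1)) scale, by class; green bars are class medians, orange points are annotated pseudogenes and dashed lines mark 1.5-fold. HIST1H1D and HIST4H4 lie below the lower line, and the class medians lie between 0.08 and 0.24.

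HIST4H4 was the member with the lowest difference, -0.85, at 135 FPKM in sgTPST2 and 245 FPKM in sgGFP. It lies alone (ENSG00000197837.3, chromosome 12, 14767999 to 14771131, minus strand, GRCh38), away from the clusters on chromosomes 1 and 6. In the authors' deposited table it has p = 0.0173 and q = 0.88. Its chromosome arm was lower as a whole: of 139 other coding genes past 1 FPKM on the short arm of chromosome 12, 134 were below 0 and 116 were at least 1.5-fold lower (median -0.86), while 434 coding genes of the rest of the chromosome had a median of -0.01. All 5 coding neighbours past 1 FPKM within 500 kb were below 0, from -0.69 to -0.38. Among them is H2AFJ, a replacement H2A gene, at 122 FPKM in sgTPST2 and 192 FPKM in sgGFP. Its start, 14774383, lies close to HIST4H4.

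Around HIST1H1D the neighbourhood did not share its difference. Of 11 other coding genes past 1 FPKM within 500 kb, 5 were above 0 and 6 below, none of the 11 was at least 1.5-fold lower, and their median was 0.00. The lowest of them, BTN2A2, a butyrophilin gene, was at 7.53 FPKM in sgTPST2 and 11.4 FPKM in sgGFP. Among the 11, 1 gene overlaps exons of HIST1H3D and HIST1H2AD on the same strand and may share reads with them. Of the neighbouring histone genes, HIST1H2AE was at 394 FPKM in sgTPST2 and 355 FPKM in sgGFP, and HIST1H3E, the next member, at 10.1 FPKM in sgTPST2 and 10.6 FPKM in sgGFP.

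On its other side HIST1H1D borders a run of 6 coding members that were nearly silent in both cultures, HIST1H4F, HIST1H4G, HIST1H3F, HIST1H2BH, HIST1H3G and HIST1H2BI. These and the other low members below were named after their values were seen. The run spans 32.9 kb (26240426 to 26273356), and its highest values were 0.316 FPKM in sgTPST2 and 0.0426 FPKM in sgGFP, the first of these for HIST1H2BI and the second for HIST1H3G. HIST1H4F, HIST1H4G and HIST1H2BH were listed at 0 in both libraries. For HIST1H2BH, a count of 3 fragments would be 0.0333 FPKM in sgTPST2 and 0.0379 FPKM in sgGFP. From 97.3% to 100% of the 51-base stretches of these 6 genes are their own. The next member, HIST1H4H, was among the highest of H4, as given above. HIST1H2BH has a stem-loop site, shown above, and its promoter window holds the octamer and CCAAT, as does that of the expressed HIST1H2BJ. The HIST1H2BJ window also holds TATAAA, which the HIST1H2BH window lacks. Over the RefSeq promoters TATAAA is present in 11 of 17 H2B promoters, that of HIST1H2BH not among them. The promoters of the expressed HIST2H2BF, HIST1H2BF and HIST1H2BN lack it too, and that of HIST1H2BA, listed at 0 in both libraries, holds it. Lack of TATAAA thus did not set the silent H2B genes apart.
HIST1H2BH (chr6:26251494-26251613, plus strand): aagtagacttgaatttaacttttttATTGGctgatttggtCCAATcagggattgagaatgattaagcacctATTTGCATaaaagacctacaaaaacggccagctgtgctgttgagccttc

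**Figure D4:**
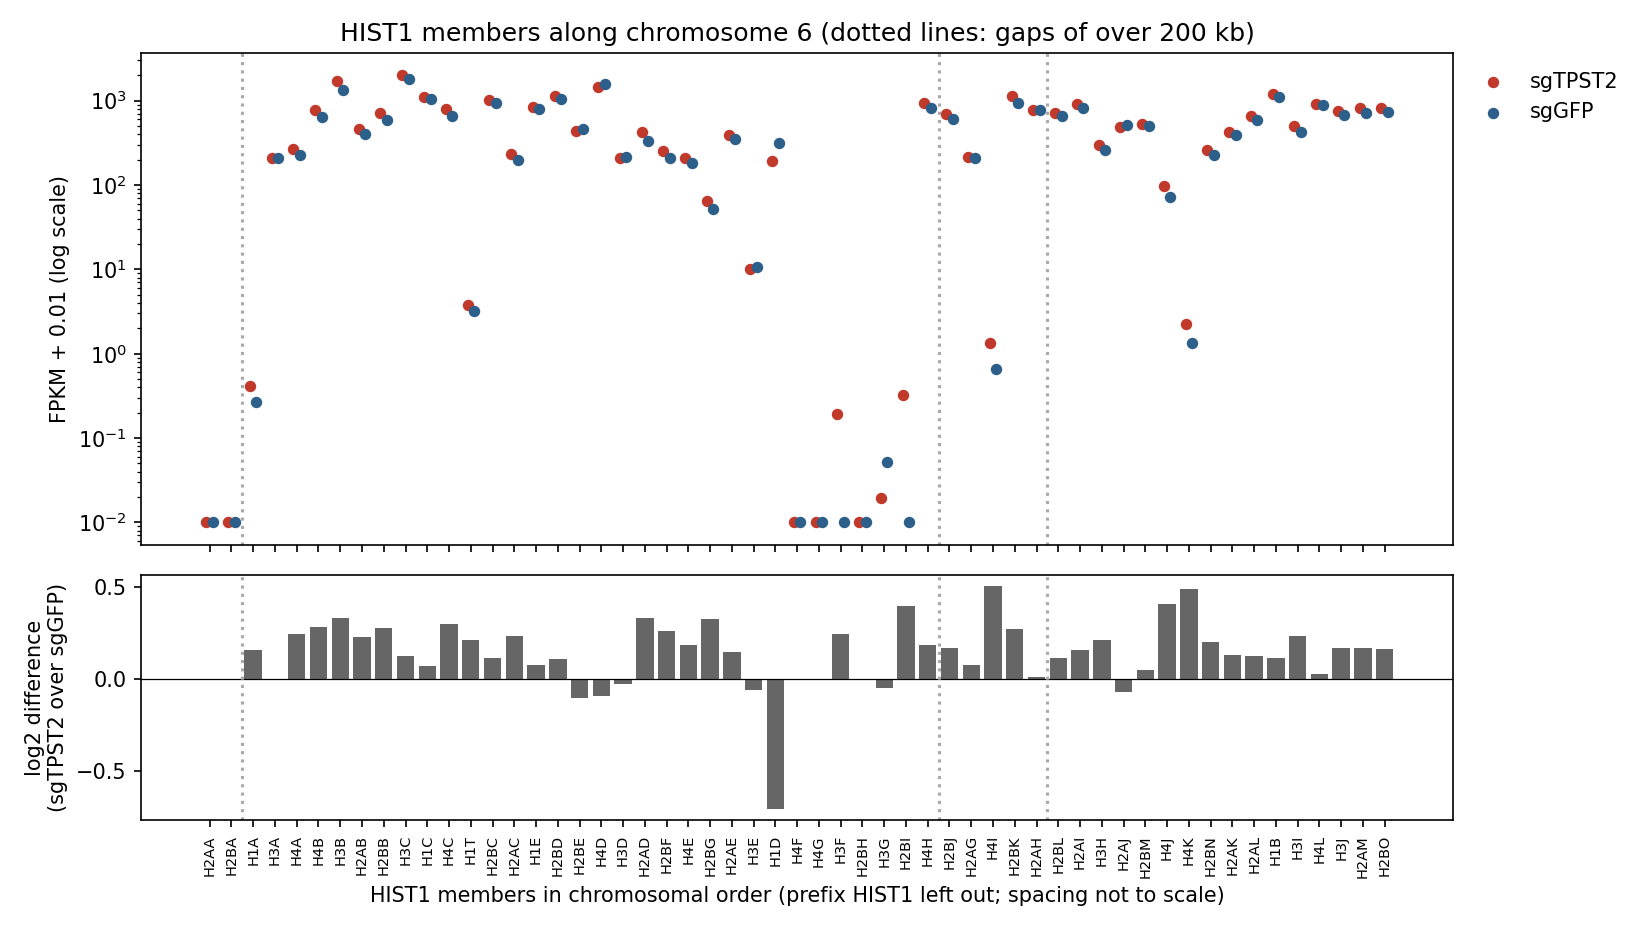
The 55 HIST1 members in their order along chromosome 6: levels in sgTPST2 (red) and sgGFP (blue) as FPKM + 0.01 on a log axis, and below them the log2 difference of sgTPST2 over sgGFP. The run from HIST1H4F to HIST1H2BI lies at the bottom of the level axis in both libraries, next to HIST1H1D, which has the one long bar below 0.

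The remaining low coding members fall into 2 sets. In 7, under 20% of the 51-base stretches are their own: HIST2H2AA3 and HIST2H2AA4, HIST2H3A and HIST2H3C, and HIST2H4A and HIST2H4B, duplicated pairs on chromosome 1, and HIST1H4K, which matches HIST1H4J. Their values ran from 0.255 to 2.26 FPKM in sgTPST2 and from 0.209 to 2.29 FPKM in sgGFP. The sources used here do not say how reads that match several genes were counted, so these values are uncertain. Among the 49 coding members of at least 5 FPKM, 7 also had under 20% of such stretches of their own. The other 8 have mostly unique sequence. They include the testis genes HIST1H2AA, HIST1H2BA and HIST3H3, listed at 0 in both libraries, and the testis H1 gene given above; HIST3H2A and HIST3H2BB, which stayed under 0.03 FPKM; and HIST1H4I, at 1.33 FPKM in sgTPST2 and 0.642 FPKM in sgGFP.

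FPKM levels of members are also shaped by how long each gene is annotated to be. Among coding members of at least 5 FPKM with 1 transcript, the 32 annotated at up to 800 bases had a median of 683 FPKM in sgTPST2 and 593 FPKM in sgGFP, and the 6 annotated beyond 800 bases a median of 213 FPKM in sgTPST2 and 195 FPKM in sgGFP. An annotation that runs past the stem-loop divides the same reads by a longer length. The fit took 176 bases (sgTPST2) and 175 bases (sgGFP) off each annotated length. This raises FPKM per fragment most in the shortest members, such as HIST1H4D and HIST1H4L, annotated at 312 bases. Orders of level between members therefore depend on the annotation and on this deduction. For these members with 1 transcript the difference between libraries uses 1 length per gene, with medians of 0.14 and 0.23 in the 2 groups. The same cannot be said of the 11 coding members of at least 5 FPKM with several transcripts, HIST4H4 among them.

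The 5 members known from other work to make polyadenylated transcripts as well were all higher in sgTPST2 on the authors' scaling, and 3 of 5 on the equal-sum scaling. HIST2H2BE was at 164 FPKM in sgTPST2 and 138 FPKM in sgGFP, and HIST1H2AC at 236 FPKM in sgTPST2 and 200.1 FPKM in sgGFP. With HIST1H1C, HIST1H2BD and HIST1H2BK, given above, their differences ran from 0.07 to 0.27 (median 0.24), within the range of the other members.

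Replacement histone genes, which are made outside DNA copying and mostly as polyadenylated mRNAs, differed among themselves. Of 12, 11 passed 1 FPKM, with 0 at least 1.5-fold higher, 2 lower and a median of 0.06, or -0.06 on the equal-sum scaling. H2AFZ, the H2A.Z gene, was at 734 FPKM in sgTPST2 and 615 FPKM in sgGFP, and H3F3B, an H3.3 gene, at 415 FPKM in sgTPST2 and 441 FPKM in sgGFP. The other H3.3 gene, H3F3A, was at 26.8 FPKM in sgTPST2 and 23.5 FPKM in sgGFP. The lower ones were H2AFJ, described above, and H2AFY2, a macroH2A gene, at 4.16 FPKM in sgTPST2 and 8.70 FPKM in sgGFP, while H2AFY, the other macroH2A gene, was at 175 FPKM in sgTPST2 and 193 FPKM in sgGFP. H2AFV was at 199 FPKM in sgTPST2 and 191 FPKM in sgGFP, H2AFX at 74.5 FPKM in sgTPST2 and 66.6 FPKM in sgGFP, and the centromeric H3 gene CENPA at 64.9 FPKM in sgTPST2 and 59.1 FPKM in sgGFP. The replication-independent linker genes split, with H1FX at 46.1 FPKM in sgTPST2 and 39.1 FPKM in sgGFP and H1F0 at 10.1 FPKM in sgTPST2 and 13.3 FPKM in sgGFP.

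Genes that switch histone transcription on stayed within 1.5-fold. Of 10, 0 were 1.5-fold apart (median 0.08, or -0.02 on the equal-sum scaling). NPAT, the cyclin E-CDK2 substrate that drives the clusters, was at 12.6 FPKM in both libraries. E2F1 was at 36.9 FPKM in sgTPST2 and 29.5 FPKM in sgGFP, the cyclin gene CCNE2 at 18.5 FPKM in sgTPST2 and 15.2 FPKM in sgGFP, HINFP, which binds H4 promoters, at 14.4 FPKM in sgTPST2 and 11.9 FPKM in sgGFP, and CDK2 at 62.7 FPKM in sgTPST2 and 56.2 FPKM in sgGFP.

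Genes of histone mRNA processing and decay were also within 1.5-fold. Of 15, 14 passed 1 FPKM, with 4 above 0, 10 below and a median of -0.06, or 2 above 0 and a median of -0.17 on the equal-sum scaling. SLBP, which binds the stem-loop, was at 84.5 FPKM in sgTPST2 and 81.4 FPKM in sgGFP. The cap-binding gene NCBP2 was at 87.9 FPKM in sgTPST2 and 72.5 FPKM in sgGFP, and 3 others were slightly lower: the cleavage factor genes CSTF2 at 22.7 FPKM in sgTPST2 and 26.7 FPKM in sgGFP and CPSF2 at 55.2 FPKM in sgTPST2 and 63.2 FPKM in sgGFP, and the exonuclease gene ERI1 at 6.97 FPKM in sgTPST2 and 8.03 FPKM in sgGFP. The U7 RNA gene RNU7-1 is listed at 0 in both libraries, a value that a very short RNA can also get where its estimate fails.

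Histone chaperones and DNA replication genes were split in direction on the authors' scaling. On the equal-sum scaling, which lowers all genes, 6 of 19 chaperones and 4 of 24 S-phase genes were above 0. Of 19 chaperones 10 were above 0 and 9 below (median 0.02), with the H3-H4 chaperone ASF1A at 36.6 FPKM in sgTPST2 and 25.9 FPKM in sgGFP, the H2A.Z chaperone ANP32E at 43.8 FPKM in sgTPST2 and 54.7 FPKM in sgGFP, the importin gene IPO4 at 54.4 FPKM in sgTPST2 and 45.6 FPKM in sgGFP, and ATRX at 23.8 FPKM in sgTPST2 and 27.98 FPKM in sgGFP. Of 24 S-phase genes 13 were above 0 and 11 below (median 0.02). The sliding clamp gene PCNA was at 399 FPKM in sgTPST2 and 332 FPKM in sgGFP, the thymidine kinase gene TK1 at 96.4 FPKM in sgTPST2 and 80.2 FPKM in sgGFP, GINS1 at 30.7 FPKM in sgTPST2 and 26.4 FPKM in sgGFP, and the polymerase gene POLA1 at 21.1 FPKM in sgTPST2 and 25.6 FPKM in sgGFP. In neither list was a gene at least 1.5-fold apart.

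**Figure D5:**
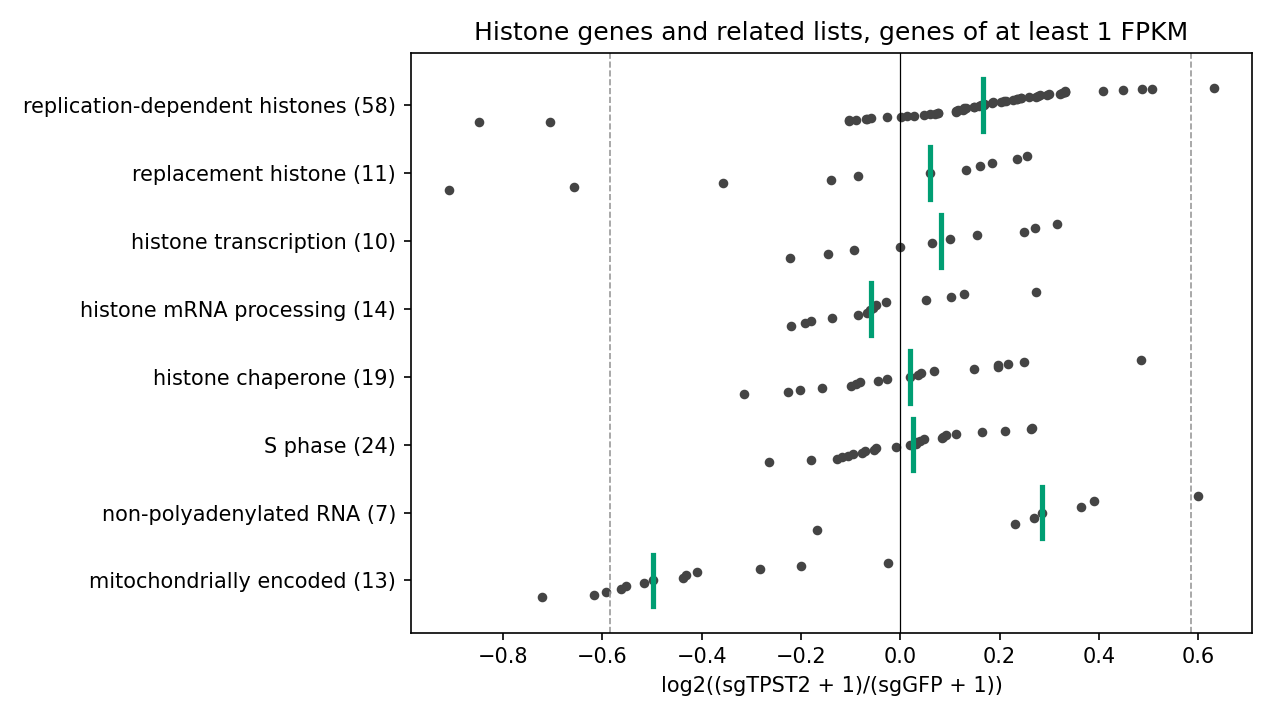
Differences of genes with a value of at least 1 FPKM in the replication-dependent histones and 7 related lists, on the log2((sgTPST2 + 1)/(sgGFP + 1)) scale, with list medians in green and dashed lines at 1.5-fold. The histone median (0.17) lies between that of S-phase genes (0.02) and that of RNAs without a poly(A) tail (0.29), and the mitochondrially encoded genes lie below 0.

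The authors' deposited table calls 96 genes at q under 0.05, and 0 of them are histone members. At an unadjusted p under 0.05 it lists 2 members, HIST1H1D and HIST4H4. On the authors' scaling, the counting intervals of the libraries did not overlap in 31 of 38 members with 1 transcript and at least 5 FPKM. Of 324 genes with 1 transcript and at least the fewest fragments of these members, 62.7% had intervals that did not overlap. Those genes were not matched to the members in fragment number, on which interval width depends, so the shares are not like for like. The count was not made on the equal-sum scaling, which lowers all sgTPST2 levels. The 38 members had 604 to 28799 fragments per gene and library, and the intervals do not cover variation between cultures.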

How the data were processed

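RNA of 2 MIA PaCa-2 cultures was sequenced from total RNA with a stranded kit, per the labels' protocols. The submitters' processing notes name STAR, Cuffdiff and hg38. The sources used here give no version, annotation or strand setting. The deposited table gives 1 value per gene and library, read as FPKM because Cuffdiff reports that unit, though the header names none. Its p-value and q-value are the authors' own, its deposited log2 fold change equals log2((sgTPST2 + 1)/(sgGFP + 1)), and its test score was not used.

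All 58698 gene identifiers and symbols match GENCODE release 29 (GRCh38), which gave coordinates, transcripts and types. Differences use a pseudocount of 1 and are given where the higher value is at least 1 FPKM and the authors' status is OK or NOTEST (13411 genes). With 1 library per group nothing was tested. Fragments per FPKM, and the bases taken off each length, were fitted on low values of long genes with 1 transcript. On those same values, 92.6% of 812 in sgTPST2 and 92.0% of 834 in sgGFP came within 0.1 of a whole number. Among members with 1 transcript, which are mostly shorter, only 7 of 11 low values in sgTPST2 and 6 of 10 in sgGFP did. Member intervals are therefore approximate. Sequence sharing is the percent of 51-base stretches found in no other annotated gene. Promoters are RefSeq's (GRCh38.p14). The calculations used Python 3.11.15, pandas 2.3.3 and SciPy 1.17.1, and were tested on simulated data. Named genes are TPST2, the 6 highest members of each class, members at least 1.5-fold apart, HIST4H4, 5 members with polyadenylated transcripts, replacement histones past 1 FPKM, and in other lists the 4 largest differences at 5 FPKM or more with SLBP, NPAT and RNU7-1. Cell type markers come from a list. HIST1H2BE, HIST2H2BC, HIST2H2BF, HIST1H2BF, HIST1H2BN, HIST1H2AE, HIST1H3E, BTN2A2, the low members and the histone pseudogenes were named after their values were seen. Members and lists were chosen with earlier results of these data known.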

Additional observations from a re-analysis of the deposited data

How the results depend on the processing

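No paired analysis was possible because there is 1 library per condition, and for the same reason no library could be left out. Of 191 alternative values of 20 counts, medians and summed ratios, 174 stayed within 1.5 times the count, inside the order-statistic interval of the median or inside the counting interval of the sum, and 17 did not. For short lists those intervals are wide: that of the H1 median, -0.71 to 0.21, is the whole range of its members. With no limit on low values the H3 median was 0.06, against 0.13 with it, and counted as staying. So did the replacement histone median, at -0.01 against 0.06. Some settings could hardly move a value, such as centring on the median gene, whose difference was -0.00014. Leaving out genes of the short arm of chromosome 12 cannot alter a class with none there. The count that stayed is therefore no measure of stability. The scaling mattered most. With equal sums over estimated genes, which lowers the median of all genes to -0.11, the medians were 0.049 for all members, 0.032 for H2A, 0.069 for H2B, -0.089 for S-phase genes and -0.61 for mitochondrially encoded genes. The summed ratios were then -0.090 for H1, 0.023 for H2A, 0.036 for H2B, 0.068 for H3 and -0.036 for H4, so H1 and H4 changed sign. The count of members at least 1.5-fold higher, 1 as given, was 0 on that scaling, 4 with a pseudocount of 0.1, 0 with a limit of 5 FPKM and 0 among coding members. The count of lower members, 2 as given, was 1 without genes of the short arm of chromosome 12, which removes HIST4H4, and the summed H4 ratio was then 0.11. The summed H3 ratio was 0.20 without members of mostly shared sequence. The equal-sum scaling and the restrictions to coding members or to unique sequence were chosen after seeing the data.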

Other observations

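The 14 histone pseudogenes left out by symbol were mostly under 1 FPKM. Of the 14, 2 reached 1 FPKM. HIST1H2APS5 was at 8.30 FPKM in sgTPST2 and 8.48 FPKM in sgGFP, and HIST1H4PS1 at 1.48 FPKM in sgTPST2 and 3.52 FPKM in sgGFP. All 14 together summed to 12.8 FPKM in sgTPST2 and 13.9 FPKM in sgGFP, against 30020 FPKM and 27460 FPKM for the members.

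Coding genes that flank the histone genes of chromosome 1 were also looked at after the values were seen. Of 11 past 1 FPKM within 500 kb of the cluster, 9 were above 0, with a median difference of 0.15, and 1 was at least 1.5-fold higher. The 13 coding genes that lie between the histone genes of chromosome 6 and are not members had a median of 0.00, with 5 above 0. They include the gene that overlaps exons of HIST1H3D and HIST1H2AD.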
